A study of Mus musculus with 23 samples.

Results

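The genes described here are 34 protein-coding genes of the mouse that carry microRNAs (miRNAs) in or beside their introns, a list fixed by name. All 34 were listed in both experiments of the series, among 22880 genes in the inducible knockout (iKO) libraries and 43068 genes in the crush libraries. The series holds 23 libraries of total RNA from mouse sciatic nerves (SNs) of the C57bl6 background. Dgcr8 iKO nerves (n = 3) came from mice of the genotype P0-CreERT2 -/+ Dgcr8 flox/flox, and their controls (n = 3) carried the same floxed alleles without the recombinase (P0-CreERT2 -/-). Dicer iKO nerves (n = 3; P0-CreERT2 -/+ Dicer1 flox/flox) and their controls (n = 3; P0-CreERT2 -/- Dicer1 flox/flox) were built in the same way. All 4 of these groups received tamoxifen and were analysed 3 months post tamoxifen (3 mpT). The recombinase acts in Schwann cells (SCs), the glia that wrap and myelinate peripheral axons, so other cells of the nerve kept both alleles, and since penetrance was incomplete the study analysed affected mutants only. Wild-type males gave nerves at 3 days post crush (3 dpc; crushed, n = 4), the uninjured nerves of the other side, which the study's methods describe as taken from the operated mice (contralateral, n = 4), and nerves of uncrushed surgery controls (uncrushed, n = 3). The labels name an Illumina TruSeq stranded kit with Ribo-Zero for the iKO libraries and a Clontech pico-input kit for the crush libraries, so levels were not compared between the experiments.

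An intronic miRNA on the strand of its host can be transcribed as part of the host gene. In the nucleus the microprocessor, made of Drosha and its RNA-binding partner Dgcr8, crops the hairpin out of the primary transcript, and Dicer then cuts the loop off in the cytoplasm. Where host and miRNA lie in the same transcript, the host messenger RNA can be spliced from it, so both share a promoter but are processed apart. Loss of Dgcr8 removes the cropping step and loss of Dicer the later one, which is why the mutants were set side by side for these genes, and nerve crush served as the injury to which the mutants are compared.

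In the GRCm38 annotation (GENCODE M21), 33 of the 34 genes held an annotated miRNA gene, and 29 held one on their own strand. Dnm1, Dnm2, Dnm3 and Iars2 held hairpins on the opposite strand only, in RNAs that run against the host. Dalrd3 held none inside: Mir425 ended 1024 bases and Mir191 1493 bases before its start. Several of the genes are paralogs that carry miRNAs of 1 seed, the bases 2 to 8 that pair with targets. Ctdsp1 carries Mir26b (chr1:74394310-74394394), Ctdsp2 Mir26a-2 (chr10:126995530-126995613) and Ctdspl Mir26a-1 (chr9:119031796-119031885). Pank1 carries Mir107 (chr19:34820687-34820773), Pank2 Mir103-2 (chr2:131288052-131288137) and Pank3 Mir103-1 (chr11:35782396-35782481). Trpm3 carries Mir204 (chr19:22750605-22750672) and Trpm1 Mir211 (chr7:64205806-64205911). The mature sequences of these families are given first, from RefSeq (GRCm38.p6), 5′ to 3′ with the seed in capitals, because the families are the unit in which the hosts are compared.
miR-26a-5p: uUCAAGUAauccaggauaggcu
miR-26b-5p: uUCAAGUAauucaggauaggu
miR-103-3p: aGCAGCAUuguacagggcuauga
miR-107-3p: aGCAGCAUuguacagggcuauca
miR-204-5p: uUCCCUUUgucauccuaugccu
miR-211-5p: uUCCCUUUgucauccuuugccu
Within each family the seed is shared and the arms differ outside it: C11U and C21U from miR-26a-5p to miR-26b-5p, G22C from miR-103-3p to miR-107-3p, and A17U from miR-204-5p to miR-211-5p, counted from the 5′ end.

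The second set belongs to hosts that stood out singly in the comparisons. It holds the arms hosted by Aatk (Mir338, chr11:120014765-120014862), Evl (Mir342, chr12:108658620-108658718), Tmem245 (Mir32, chr4:56895229-56895298), Smc4 (Mir15b, chr3:69009772-69009835, and Mir16-2, chr3:69009902-69009996), Tln2 (Mir190a, chr9:67236660-67236726) and Egfl7 (Mir126a, chr2:26591357-26591429). Clcn5 holds a cluster of 5 hairpins, of which Mir362 (chrX:7241982-7242046) and Mir500 (chrX:7237683-7237774) share a seed.
miR-338-3p: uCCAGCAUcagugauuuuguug
miR-342-3p: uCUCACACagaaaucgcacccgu
miR-32-5p: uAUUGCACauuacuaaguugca
miR-15b-5p: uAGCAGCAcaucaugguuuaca
miR-16-5p: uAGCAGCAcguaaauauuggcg
miR-190a-5p: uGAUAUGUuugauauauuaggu
miR-126a-3p: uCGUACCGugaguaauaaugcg
miR-362-5p: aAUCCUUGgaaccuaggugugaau
miR-500-5p: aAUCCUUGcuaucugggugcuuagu
These libraries do not measure the miRNAs themselves. Of the 53 hairpin genes inside the 34 hosts, all 53 were listed in the crush libraries and 3 had any count there (at most 3 counts in a library), and the iKO lists held 0 miRNA genes, so every value below is of host RNA.

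Levels are given as CPM, the counts of a gene relative to the library total, with TMM factors fitted over the libraries of each experiment, in the order of the replicate numbers. In the crush experiment this scaling places crushed nerves 0.14 (contralateral) and 0.12 (uncrushed) higher on the log2 scale than the fitted fold changes do, as a median over the host genes, because the fits scaled only the libraries and genes compared. Total counts per library ran from 5594838 to 10143207 in the iKO libraries and from 6617600 to 12805921 in the crush libraries. The lowest level that 3 counts can show was 0.296 to 0.536 CPM and 0.234 to 0.453 CPM, which covers counting error only. Differences are log2 fold changes ± SE with adjusted p-values from edgeR's quasi-likelihood test (Benjamini-Hochberg over all genes tested). Genes past an adjusted p of 0.05 are said to have risen or fallen, and those that also changed at least 2-fold are called upregulated or downregulated. Counted as whole genes, the targeted genes did not pass the test in their mutants. Dgcr8 measured 38.2, 34.8 and 41.9 CPM in its controls and 39.3, 53.7 and 41.7 CPM in Dgcr8 iKO nerves (adjusted p = 0.233). Dicer1 measured 88.0, 88.4 and 91.0 CPM in its controls and 81.0, 82.8 and 82.4 CPM in Dicer iKO nerves (adjusted p = 0.357). The values of Dgcr8 overlapped, and those of Dicer1 lay slightly lower in the 3 mutants. Counts over whole genes do not single out the floxed exons, and other cells of the nerve keep the alleles, so this check cannot settle the labels. Drosha fell in Dgcr8 iKO nerves, from 48.7, 48.5 and 55.2 CPM to 32.0, 22.1 and 31.9 CPM (-0.83 ± 0.16, adjusted p = 0.00136). Of the 23 genes listed for miRNA biogenesis and action (Drosha, Dgcr8, Dicer1, Argonaute and Tnrc6 genes among them), 3 of 20 tested rose and 2 fell on Dgcr8 loss, 1 of 19 rose on Dicer loss, 6 of 20 rose and 7 fell against contralateral, and 8 of 20 rose and 4 fell against uncrushed nerves. Over all genes tested, 23.9% rose and 20.6% fell on Dgcr8 loss, and 12.3% and 8.88% on Dicer loss. Against contralateral nerves 33.5% rose and 32.9% fell, and against uncrushed nerves 33.8% and 33.4%. Counts of listed genes, here and for the markers below, are to be read beside these shares.

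Markers of several cell types differed between the groups. Of 3 markers of the Schwann lineage (Sox10, S100b and Erbb3), 1 rose and 1 fell on Dgcr8 loss, 1 fell on Dicer loss, and 3 fell after crush against contralateral and against uncrushed nerves. Of 5 fibroblast markers, 4 rose in Dgcr8 iKO and 3 in Dicer iKO nerves, and 3 fell in either crush comparison. Of 5 erythroid markers, 4 fell in Dgcr8 iKO nerves and in both crush comparisons, and their summed level in Dicer controls ran from 78.7 to 3745 CPM. Summed levels of skeletal muscle and adipocyte markers reached at most 19.1 and 24.6 CPM in a library.

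Compared per length within an experiment (FPKM, as deposited), the host genes spanned a wide range. Aatk was the most abundant host in Dgcr8 controls at 252 ± 26.2 FPKM (SD, n = 3) and in contralateral nerves at 228 ± 30.3 FPKM (SD, n = 4). Its lowest library lay above the highest library of the next host in both groups. In contralateral nerves Huwe1 followed at 83.3 ± 2.28 FPKM, then Rnf130 at 66.5 ± 2.38, Zranb2 at 59.4 ± 4.09 and Tmem245 at 45.4 ± 1.70, of which only the libraries of Rnf130 and Zranb2 overlapped. From Smc4 (14.3 ± 1.16 FPKM) down to Evl (8.92 ± 0.279 FPKM), neighbours in the order overlapped throughout. At the low end were Ppargc1b, Ank1, Trpm1, Gabre and Myh7b, with Gabre at 0.777 ± 0.389 and Myh7b at 0.198 ± 0.136 FPKM. Myh7b, a myosin heavy chain of heart and slow muscle that hosts Mir499, stood at 0 to 0.287 CPM in the iKO libraries and 0 to 0.887 CPM in the crush libraries. It passed the filter on low counts in 0 comparisons.

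Fewer of the host genes changed in the mutants than after crush, as for all genes. In Dgcr8 iKO nerves 31 of the 34 were tested, and 7 rose and 6 fell, against 23.9% and 20.6% of all genes tested. Of these, Clcn5 and Evl were upregulated and Tmem245 was downregulated (13.4% and 6.99% of all genes), and the median log2 fold change of the 31 was -0.005 against -0.01 over all genes. In Dicer iKO nerves Evl rose and Ctdsp1 and Ctdspl fell (12.3% and 8.88% of all genes), and 0 of the 31 tested changed at least 2-fold (7.37% up and 1.64% down over all genes), while 9 had an unadjusted p under 0.05 and DESeq2 also called 0 at 2-fold. After crush 33 were tested. Against contralateral nerves 13 rose and 15 fell (33.5% and 32.9% of all genes), with 2 upregulated and 8 downregulated (14.6% and 13.6%). Against uncrushed nerves 14 rose and 13 fell (33.8% and 33.4%), with 3 upregulated and 7 downregulated (15.3% and 21.1%). The same 4 crushed nerves enter both of these comparisons. Between contralateral and uncrushed nerves 0 host genes differed, as did 0% of all genes in edgeR's test, while 4 host genes had an unadjusted p under 0.05 and DESeq2 called 0 of them. Read against these backgrounds, 28 of 33 hosts past the threshold against contralateral nerves is more than the sum of 33.5% and 32.9%. With the 2-fold limit 6.06% of the hosts were up and 24.2% down there, beside 14.6% and 13.6% of all genes. The shares in the mutants lie near or below those of all genes. No test of the list as a whole was made. Counts of hosts at an unadjusted p, here and below, stand without the share of all genes. They are not read as a trait of the hosts.

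**Figure D1:**
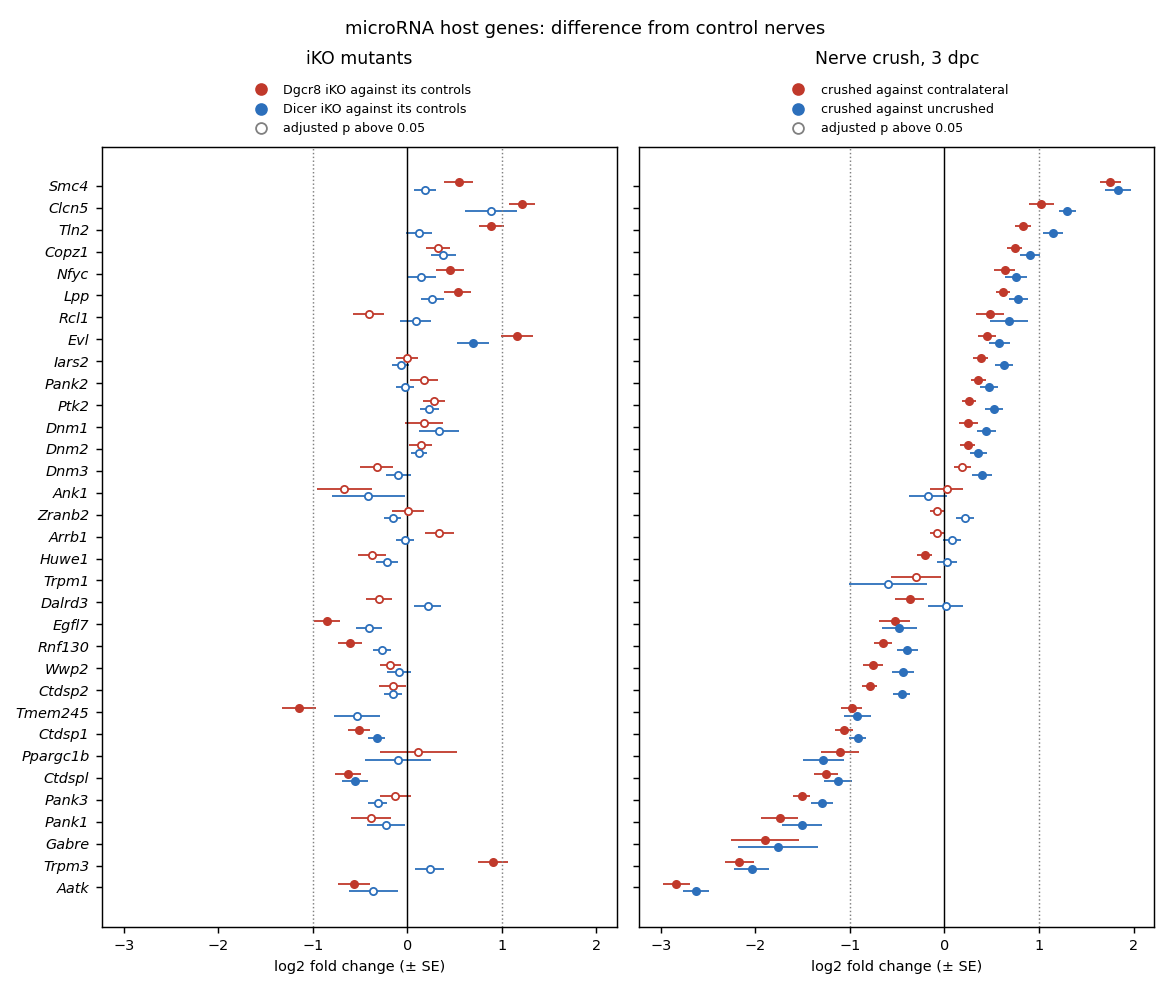
Log2 fold change ± SE (horizontal axis) of each tested host gene, ordered by the change in crushed against contralateral nerves: left, Dgcr8 iKO (red) and Dicer iKO (blue) against their own controls; right, crushed against contralateral (red) and uncrushed (blue) nerves. Filled points have an adjusted p of at most 0.05 and dotted lines mark a 2-fold change. Against contralateral nerves the changes run from Aatk at -2.84 to Smc4 at 1.75, while 3 hosts in the left panel pass both limits.

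The 3 small C-terminal domain phosphatases Ctdsp1, Ctdsp2 and Ctdspl, which dephosphorylate RNA polymerase II and restrain neuronal genes outside neurons, host the miR-26 family and all 3 fell after crush. Ctdspl measured 23.9, 26.1, 22.5 and 24.4 CPM in contralateral, 21.96, 22.8 and 22.9 CPM in uncrushed and 8.14, 13.2, 12.7 and 10.9 CPM in crushed nerves. Every crushed nerve lay below every control nerve, and the change was -1.25 ± 0.13, adjusted p = 7.70e-07 against contralateral and -1.13 ± 0.14, adjusted p = 2.54e-05 against uncrushed nerves. Ctdsp1 measured 48.6, 61.3, 55.7 and 51.8 CPM in contralateral, 52.9, 47.5 and 48.7 CPM in uncrushed and 28.3, 30.7, 26.9 and 28.4 CPM in crushed nerves. Its changes, -1.07 ± 0.09, adjusted p = 1.28e-07 and -0.92 ± 0.09, adjusted p = 2.84e-06, fall on either side of the 2-fold limit, again with no overlap, and without contralateral 2 the first was -0.98. Ctdsp2 measured 109, 128, 115 and 106 CPM, 98.3, 90.1 and 86.9 CPM and 73.3, 76.4, 75.8 and 66.1 CPM in the same order of groups. Its fall was the smallest of the 3 (-0.79 and -0.45, adjusted p = 6.75e-07 and 0.000562).
In the mutants the same genes moved less. Ctdspl stood at 52.5, 61.7 and 55.2 CPM in Dgcr8 controls and 30.5, 40.2 and 39.4 CPM in Dgcr8 iKO nerves, without overlap (-0.62 ± 0.14, adjusted p = 0.00371). In Dicer controls Ctdspl stood at 92.6, 82.1 and 64.6 CPM and in Dicer iKO nerves at 56.6, 51.6 and 54.2 CPM (-0.55 ± 0.14, adjusted p = 0.0302). Ctdsp1 fell from 88.2, 103 and 87.9 CPM to 66.2, 63.8 and 65.6 CPM on Dgcr8 loss (-0.51 ± 0.12, adjusted p = 0.00421). On Dicer loss Ctdsp1 went from 98.0, 103 and 97.6 CPM to 73.7, 80.8 and 83.0 CPM (-0.32 ± 0.09, adjusted p = 0.0383), and mutants and controls did not overlap in either line. Both Dicer calls were narrow: over the 13 alternative settings the adjusted p of Ctdspl ran from 0.00573 to 0.122 and that of Ctdsp1 from 0.0247 to 0.140, and when single libraries were left out both calls held only without Dicer control 3. Ctdsp2 stood at 232, 297 and 254 CPM in Dgcr8 controls and 251, 243 and 212 CPM in Dgcr8 iKO nerves, which overlapped (-0.15 ± 0.14, adjusted p = 0.412), and at 319, 305 and 324 CPM and 278, 267 and 306 CPM in the Dicer line (-0.15 ± 0.10, adjusted p = 0.312).

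The pantothenate kinases Pank1, Pank2 and Pank3 catalyse the first step of coenzyme A synthesis and host the miR-103 and miR-107 family, and after crush they parted: Pank1 and Pank3 were downregulated while Pank2 rose. Pank3 measured 254, 283, 236 and 241 CPM in contralateral, 185, 249 and 229.7 CPM in uncrushed and 94.7, 111, 99.9 and 86.3 CPM in crushed nerves. This was 2.85-fold lower than contralateral (-1.51 ± 0.09, adjusted p = 1.44e-09) and 2.46-fold lower than uncrushed nerves (-1.30 ± 0.11, adjusted p = 9.94e-07). Pank1 was a much rarer transcript, at 7.26, 9.72, 7.44 and 6.11 CPM, 7.01, 5.29 and 7.48 CPM and 2.36, 2.58, 2.20 and 2.91 CPM in the same order. It fell by a like amount (-1.75 ± 0.19, adjusted p = 1.69e-06 and -1.50 ± 0.21, adjusted p = 5.31e-05), and crushed nerves did not overlap with controls for either gene. Pank2, the mitochondrial member, measured 25.4, 24.7, 27.3 and 25.1 CPM, 23.0, 26.0 and 22.9 CPM and 36.7, 37.8, 38.5 and 31.3 CPM. Every crushed nerve lay above every control nerve, with changes under 2-fold (0.36 ± 0.08, adjusted p = 0.00108 and 0.47 ± 0.10, adjusted p = 0.00109).
None of the 3 kinases passed the test in either mutant. In Dgcr8 controls Pank1 stood at 10.2, 9.11 and 7.48 CPM and in Dgcr8 iKO nerves at 7.53, 6.64 and 6.41 CPM (-0.39 ± 0.21, adjusted p = 0.156), and at 8.76, 8.16 and 7.33 CPM and 7.69, 6.95 and 5.99 CPM in the Dicer line (-0.23 ± 0.20, adjusted p = 0.448). Pank3 stood at 285, 274 and 378 CPM and 280.5, 328 and 252 CPM in the Dgcr8 line (-0.13 ± 0.17, adjusted p = 0.566), and at 361, 400.0 and 401 CPM and 326, 318 and 287 CPM in the Dicer line (-0.31 ± 0.10, adjusted p = 0.0684). Pank2 stood at 51.5, 41.6 and 57.7 CPM and 60.2, 61.4 and 49.3 CPM in the Dgcr8 line (0.18 ± 0.15, adjusted p = 0.361), and at 65.6, 63.8 and 60.01 CPM and 61.3, 58.1 and 66.4 CPM in the Dicer line (-0.02 ± 0.10, adjusted p = 0.883). Groups overlapped for each of them except Pank3 in the Dicer line, where the 3 iKO nerves lay below the 3 controls.

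**Figure D2:**
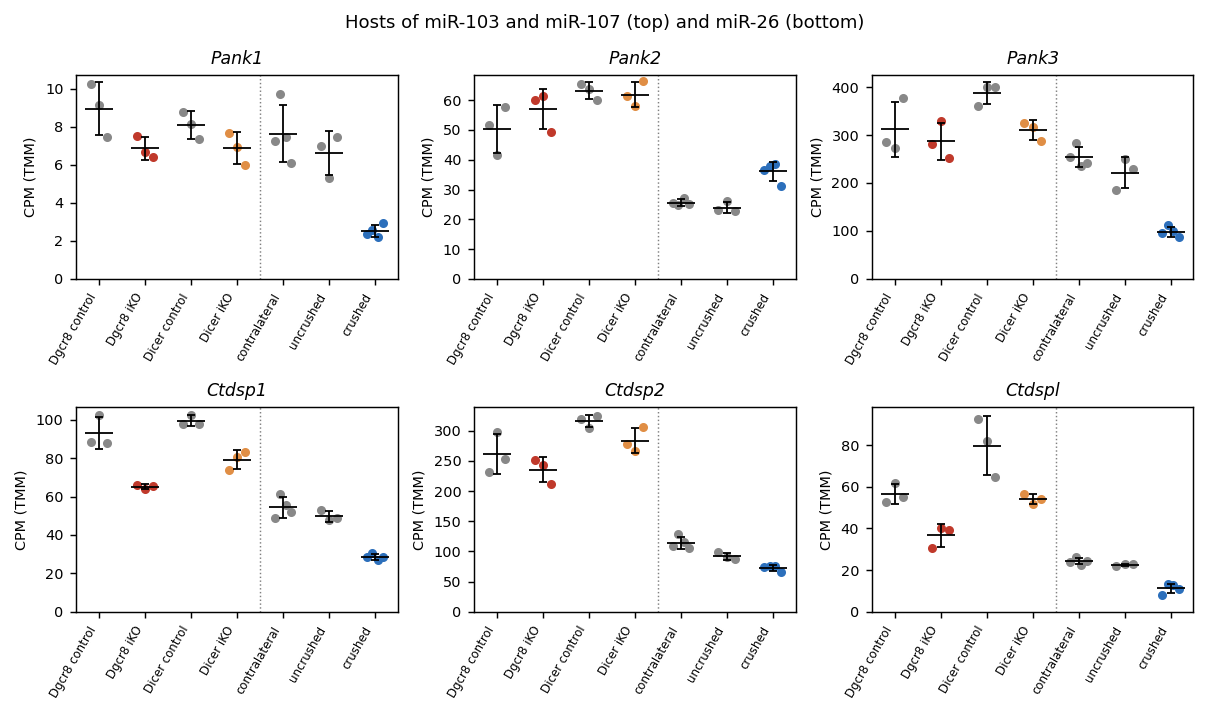
CPM (vertical axis, from 0) of the miR-103 and miR-107 hosts Pank1 to Pank3 (top) and the miR-26 hosts Ctdsp1, Ctdsp2 and Ctdspl (bottom) in every library, by group, with the mean ± SD in black; a dotted line separates the 2 experiments, whose levels are not comparable. Crushed nerves (blue) lie below the grey control nerves for 5 of the 6 genes and above them for Pank2.

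Among hosts that encode ion channels, Trpm3 differed in direction between Dgcr8 loss and crush. Trpm3, a heat- and steroid-activated cation channel that hosts Mir204, measured 24.1, 33.9 and 31.1 CPM in Dgcr8 controls and 65.4, 52.9 and 49.0 CPM in Dgcr8 iKO nerves. The 3 mutants lay above the 3 controls, 1.87-fold on average (0.91 ± 0.16, adjusted p = 0.000938). In the Dicer line it measured 26.3, 27.3 and 36.8 CPM in controls and 35.7, 32.7 and 37.6 CPM in iKO nerves, which overlapped (0.24 ± 0.15, adjusted p = 0.307). In the crush experiment Trpm3 measured 35.1, 32.0, 31.0 and 23.2 CPM in contralateral, 31.4, 32.2 and 19.8 CPM in uncrushed and 6.74, 9.96, 6.99 and 5.92 CPM in crushed nerves. It was 4.50-fold lower than in contralateral (-2.17 ± 0.15, adjusted p = 1.50e-08) and 4.11-fold lower than in uncrushed nerves (-2.04 ± 0.19, adjusted p = 1.33e-06). Its paralog Trpm1, best known from melanocytes and retinal bipolar cells, was rare. It stood at 1.93, 1.56, 2.25 and 2.07 CPM in contralateral, 1.45, 1.76 and 4.43 CPM in uncrushed and 2.27, 1.69, 1.10 and 1.81 CPM in crushed nerves, which overlapped (-0.30 ± 0.27, adjusted p = 0.332). In the iKO libraries Trpm1 ran from 0 to 1.06 CPM and was not tested. Dgcr8 iKO nerves overlapped with their controls. Dicer iKO nerves lay above theirs, at 0.348 to 1.06 CPM against 0 to 0.144 CPM, which is near the floor. Of 5 melanocyte markers (Mlana, Pmel, Tyrp1, Dct and Tyr), 1 was tested and fell after crush. The summed level was 11.0 to 17.9 CPM in contralateral, 18.5 to 21.98 CPM in uncrushed and 8.99 to 12.1 CPM in crushed nerves. In these groups 0 of the 5 were at 0 throughout. In Dgcr8 iKO nerves the sum was 7.59 to 15.1 CPM, against 1.21 to 2.24 CPM in controls, and the 1 marker tested rose. In Dicer iKO nerves it was 3.303 to 6.497 CPM, against 0.936 to 1.901 CPM in controls, with 0 markers tested. From 1 to 3 of the 5 were at 0 throughout each iKO and iKO control group. The part of these markers in the Trpm1 values was not tested.

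Clcn5, an endosomal chloride-proton exchanger that hosts Mir188, Mir362, Mir500, Mir501 and Mir532, was the host with the largest rise on Dgcr8 loss. It measured 51.7, 38.3 and 49.8 CPM in Dgcr8 controls and 108, 104 and 113 CPM in Dgcr8 iKO nerves, without overlap (1.21 ± 0.14, adjusted p = 4.78e-05). In the Dicer line it measured 81.0, 52.2 and 33.4 CPM in controls and 101, 103 and 102 CPM in iKO nerves (0.88 ± 0.28, adjusted p = 0.0570). The controls spread widely, with replicate 1 nearest to the mutants, and without Dicer control 1 the change was 1.26 (adjusted p = 0.00478); over the 13 alternatives the adjusted p ran from 0.00478 to 0.169. After crush Clcn5 measured 38.6, 23.3, 25.4 and 26.4 CPM in contralateral, 23.2, 24.4 and 23.8 CPM in uncrushed and 60.6, 64.3, 65.3 and 63.8 CPM in crushed nerves. The crushed nerves lay above all control nerves (1.03 ± 0.13, adjusted p = 5.82e-06 and 1.30 ± 0.09, adjusted p = 1.18e-07), and the first value falls just under the 2-fold limit when contralateral 2, 3 or 4 or crushed 2 or 3 is left out (0.95 to 0.99). Only 12.5% to 16.9% of the Clcn5 counts in Dgcr8 controls and 9.77% to 20.4% in Dgcr8 iKO nerves fell in the 2 of 4 listed transcripts that run over the hairpins. The remainder fell mostly in a shorter protein-coding transcript that starts downstream of them.
Gabre, the epsilon subunit of the GABA-A receptor that hosts Mir224 and Mir452, was rare. It measured 2.76, 2.10, 1.86 and 2.07 CPM in contralateral, 2.05, 1.76 and 2.29 CPM in uncrushed and 0.437, 0.267, 0.799 and 1.10 CPM in crushed nerves. The crushed nerves lay below all control nerves (-1.90 ± 0.36, adjusted p = 0.000341 and -1.76 ± 0.42, adjusted p = 0.00299), with some near the detection limit. In the iKO libraries Gabre ran from 0.380 to 2.17 CPM and was not tested against the controls of either line.

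Aatk, a kinase abundant in myelinating SCs and the host of Mir338, showed the largest fall of all hosts after crush. It measured 468, 677, 621 and 537 CPM in contralateral, 555, 500.4 and 456 CPM in uncrushed and 109.8, 92.9, 84.6 and 67.5 CPM in crushed nerves. This was 7.15-fold lower than contralateral (-2.84 ± 0.14, adjusted p = 3.84e-10) and 6.18-fold lower than uncrushed nerves (-2.63 ± 0.14, adjusted p = 1.19e-08), without overlap. On Dgcr8 loss Aatk fell from 1192, 1492 and 1225 CPM to 906, 918 and 824 CPM, also without overlap (-0.57 ± 0.17, adjusted p = 0.0173; 0.0654 without iKO 1). In the Dicer line it measured 743, 1145 and 1629 CPM in controls and 910.1, 848 and 972 CPM in iKO nerves (-0.36 ± 0.26, adjusted p = 0.356), and Dicer control 1 lay below the 3 mutants. Without it the change was -0.60 (adjusted p = 0.0495). Markers of myelinating SCs (Mbp, Pmp22, Prx, Mag, Mal, Cldn19 and Drp2) moved the same way. After crush 7 of these 7 fell and their summed level went from 28588 to 35664 CPM in contralateral to 1081 to 1619 CPM in crushed nerves. In Dgcr8 iKO nerves 6 of 7 fell (37153 to 42373 CPM in controls, 11243 to 22159 CPM in mutants), and in Dicer iKO nerves 2 of 7 (27302 to 45082 CPM and 19405 to 25729 CPM). None of these markers was at 0. Their part in the change of Aatk, Pank1, Pank3, Trpm3 and the Ctdsp genes was not tested, and in whole nerves fewer cells of a type and less RNA per cell cannot be told apart.

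Among the other signalling hosts, Ptk2 (focal adhesion kinase, host of Mir151) rose after crush by less than 2-fold, from 55.3, 53.1, 49.6 and 52.0 CPM in contralateral and 43.6, 47.9 and 41.4 CPM in uncrushed to 73.7, 69.5, 74.2 and 59.9 CPM in crushed nerves. The crushed nerves lay above both control groups (0.26 ± 0.08, adjusted p = 0.00840 against contralateral and 0.52 ± 0.10, adjusted p = 0.000453 against uncrushed nerves). The first value missed the threshold without crushed 1 or crushed 3 (0.0511 and 0.0638). In the mutants Ptk2 stood above the controls without overlap and did not pass the test (0.28 ± 0.12, adjusted p = 0.0769 for Dgcr8 and 0.23 ± 0.10, adjusted p = 0.135 for Dicer). Arrb1, an arrestin that binds activated receptors and hosts Mir326, passed in 0 of these 4 comparisons. Its log2 fold changes ran from -0.08 against contralateral nerves to 0.34 on Dgcr8 loss, where its adjusted p was 0.0881 (0.0184 without Dgcr8 control 3).

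Among the hosts that act on actin and adhesion, Evl, Tln2 and Lpp rose on Dgcr8 loss and after crush. Evl, an Ena/VASP protein that extends actin filaments and hosts Mir342, was the only host upregulated on Dgcr8 loss that also rose on Dicer loss. It measured 13.9, 10.7 and 11.9 CPM in Dgcr8 controls and 26.7, 24.0 and 31.4 CPM in Dgcr8 iKO nerves (1.16 ± 0.17, adjusted p = 0.000231). On Dicer loss it went from 16.4, 16.3 and 15.9 CPM in controls to 20.02, 28.2 and 30.2 CPM in iKO nerves (0.69 ± 0.17, adjusted p = 0.0265), and mutants and controls did not overlap in either line. After crush Evl went from 16.6, 18.7, 17.5 and 17.2 CPM in contralateral and 17.00, 16.2 and 15.3 CPM in uncrushed to 23.1, 28.3, 28.0 and 26.2 CPM in crushed nerves (0.45 ± 0.09, adjusted p = 0.000656 and 0.58 ± 0.11, adjusted p = 0.000493). The Dicer value is not firm: its adjusted p ran from 0.00764 to 0.106 over 13 alternatives, and it missed the threshold without Dicer control 2, iKO 2 or iKO 3. Evl is also expressed in leukocytes. Of 8 macrophage markers, 7 rose in Dgcr8 iKO (summed level 249 to 294 CPM in controls, 2379 to 5673 CPM in mutants), 6 in Dicer iKO (266 to 892 CPM and 3593 to 6567 CPM) and 8 in crushed against contralateral nerves (84.4 to 152 CPM and 691 to 1679 CPM), with 0 markers at 0. Their part in the rise of Evl was not tested.
Tln2, a talin that links integrins to actin and hosts Mir190a, rose on Dgcr8 loss from 87.3, 96.6 and 74.7 CPM to 164, 167 and 149 CPM without overlap (0.89 ± 0.13, adjusted p = 0.000307). In the Dicer line it measured 128, 124 and 126 CPM in controls and 109, 151 and 150.4 CPM in iKO nerves, which overlapped (0.12 ± 0.14, adjusted p = 0.557). Tln2 thus rose in the Dgcr8 line, while the Dicer line gave no call. After crush Tln2 went from 74.1, 79.4, 69.2 and 71.1 CPM in contralateral and 63.6, 62.6 and 53.1 CPM in uncrushed to 155, 151, 152 and 119 CPM in crushed nerves (0.83 ± 0.08, adjusted p = 6.95e-07 and 1.15 ± 0.11, adjusted p = 1.71e-06). Lpp, a focal adhesion protein that hosts Mir28a, rose on Dgcr8 loss from 97.0, 123 and 114 CPM to 149, 148 and 187 CPM without overlap (0.53 ± 0.14, adjusted p = 0.0108). After crush it went from 88.8, 83.3, 79.3 and 79.7 CPM in contralateral and 67.3, 78.7 and 78.9 CPM in uncrushed to 128, 154, 150.4 and 128 CPM in crushed nerves (0.62 ± 0.08, adjusted p = 5.37e-06 and 0.78 ± 0.10, adjusted p = 2.86e-05). These rises of Lpp were all under 2-fold, and the Dgcr8 value missed the threshold without control 1 (0.0683). Ank1, the ankyrin of the red cell membrane and host of Mir486, ran from 1.22 to 4.67 CPM in the iKO and from 3.25 to 4.58 CPM in the crush libraries and passed in 0 comparisons. It measured 4.12, 3.48 and 4.67 CPM in Dgcr8 controls and 2.59, 2.09 and 3.14 CPM in Dgcr8 iKO nerves, which lay below the controls without overlap (-0.67 ± 0.29, adjusted p = 0.0865). The 5 erythroid markers, of which 4 were tested and fell there, summed to 45.4 to 359 CPM in these controls and 10.4 to 35.5 CPM in the mutants, and their part in the Ank1 values was not tested.

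The dynamins Dnm1, Dnm2 and Dnm3 are the GTPases that pinch off endocytic vesicles, and the miR-199 and miR-214 hairpins inside them lie on the opposite strand. The mature arm they share is printed because it links the 3 loci: Mir199b (chr2:32318460-32318569) in Dnm1, Mir199a-1 (chr9:21496495-21496564) in Dnm2 and Mir199a-2 (chr1:162217814-162217923) in Dnm3. The miR-199a-3p and miR-199b-3p arms had 0 differences.
miR-199a-3p: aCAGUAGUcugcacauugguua
Dnm2, the ubiquitous member, measured 71.4, 87.0, 80.4 and 81.0 CPM in contralateral, 77.5, 73.3 and 73.3 CPM in uncrushed and 100.4, 105, 115 and 96.3 CPM in crushed nerves (0.24 ± 0.08, adjusted p = 0.0157 and 0.36 ± 0.09, adjusted p = 0.00339). Dnm1, the neuronal member, measured 25.7, 21.6, 23.6 and 30.3 CPM, 21.0, 21.2 and 25.2 CPM and 32.8, 32.4, 35.3 and 31.8 CPM in the same order (0.25 ± 0.10, adjusted p = 0.0392 and 0.44 ± 0.10, adjusted p = 0.00233). For both genes every crushed nerve lay above every control nerve, with changes of at most 1.36-fold. The calls against contralateral nerves were weak: Dnm1 missed the threshold in 7 of the 8 fits that left out a library (adjusted p from 0.0608 to 0.190), and Dnm2 without contralateral 1 or crushed 3 (0.0574 and 0.104). Dnm3 measured 35.8, 31.5, 32.6 and 32.7 CPM, 27.8, 30.5 and 28.9 CPM and 44.8, 39.1, 46.9 and 35.5 CPM, where crushed and contralateral nerves overlapped (0.19 ± 0.09, adjusted p = 0.0770 and 0.40 ± 0.11, adjusted p = 0.00555). In the mutants none of the dynamins passed the test. Dnm1 measured 30.6, 44.4 and 26.8 and 31.9, 36.1 and 47.3 CPM in Dgcr8 controls and iKO nerves, and 56.8, 42.0 and 35.2 and 61.5, 42.9 and 63.3 CPM in the Dicer line. Dnm2 measured 93.1, 108 and 90.1 and 104, 110.4 and 108 CPM in the Dgcr8 line and 105, 114 and 108 and 117, 118 and 119 CPM in the Dicer line. Dnm3 measured 49.5, 56.7 and 38.6 and 34.7, 47.3 and 33.8 CPM in the Dgcr8 line (-0.32 ± 0.18, adjusted p = 0.157) and 54.1, 40.9 and 41.3 and 43.9, 42.4 and 40.9 CPM in the Dicer line. Mutants and controls overlapped in these values except for Dnm2 in the Dicer line, where the mutants lay above (0.12 ± 0.08, adjusted p = 0.334). The antisense RNA that carries Mir199a-2 and Mir214, Dnm3os, is in the crush lists only and rose against contralateral nerves (0.96 ± 0.25, adjusted p = 0.00400). Whether the counting used strand is not given in the sources used here, so reads of Dnm3 and Dnm3os may not be fully told apart.

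Among nuclear hosts, Smc4, a core subunit of the condensin complexes that compact mitotic chromosomes and the host of Mir15b and Mir16-2, rose most after crush. It measured 36.1, 38.1, 35.1 and 35.8 CPM in contralateral, 37.0, 33.9 and 33.1 CPM in uncrushed and 108, 171, 138 and 123 CPM in crushed nerves. The crushed nerves were 3.37-fold above contralateral (1.75 ± 0.11, adjusted p = 4.18e-09) and 3.57-fold above uncrushed nerves (1.84 ± 0.14, adjusted p = 2.29e-07). On Dgcr8 loss Smc4 rose from 48.1, 36.9 and 51.6 CPM to 56.5, 72.0 and 71.4 CPM without overlap (0.54 ± 0.15, adjusted p = 0.0138). Dicer controls had 39.3, 45.7 and 44.9 CPM of Smc4 and Dicer iKO nerves 45.2, 55.5 and 47.1 CPM, which overlapped (0.19 ± 0.12, adjusted p = 0.289). All 5 proliferation markers (Mki67, Top2a, Cdk1, Ccnb1 and Birc5) rose in the same comparisons, from a summed 17.3 to 32.5 CPM in contralateral to 789.9 to 1190.0 CPM in crushed nerves, from 7.999 to 11.7 CPM to 203 to 302 CPM on Dgcr8 loss and from 5.84 to 14.0 CPM to 76.1 to 109 CPM on Dicer loss. Their part in the Smc4 values was not tested.
Nfyc, a subunit of the CCAAT-binding factor NF-Y that hosts Mir30c-1 and Mir30e, rose on Dgcr8 loss from 19.6, 23.6 and 21.0 CPM to 33.8, 25.2 and 29.1 CPM (0.45 ± 0.15, adjusted p = 0.0310). After crush it went from 13.0, 14.8, 12.3 and 11.6 CPM in contralateral and 12.05, 12.2 and 12.1 CPM in uncrushed to 22.9, 20.6, 25.7 and 19.97 CPM in crushed nerves (0.64 ± 0.11, adjusted p = 0.000162 and 0.76 ± 0.12, adjusted p = 0.000124). The groups did not overlap, and each rise was under 2-fold. Its Dgcr8 value missed the threshold without control 1, control 3, iKO 1 or iKO 3 (adjusted p from 0.0515 to 0.138). Ppargc1b, a coactivator of mitochondrial genes, was downregulated after crush. It measured 3.95, 4.36, 5.38 and 4.14 CPM in contralateral, 5.64, 4.71 and 4.88 CPM in uncrushed and 2.62, 1.78, 2.70 and 2.01 CPM in crushed nerves (-1.10 ± 0.20, adjusted p = 0.000225 and -1.28 ± 0.22, adjusted p = 0.000279). In the Dgcr8 line it stayed low, at 1.18, 2.55 and 2.29 CPM in controls and 1.41, 2.94 and 2.10 CPM in iKO nerves (0.12 ± 0.41, adjusted p = 0.833). Dicer controls ran from 2.54 to 3.26 CPM of Ppargc1b and Dicer iKO nerves from 1.86 to 3.82 CPM, which overlapped. Zranb2, a splicing factor that hosts Mir186, passed in 0 of the comparisons, with log2 fold changes from -0.16 on Dicer loss to 0.21 in crushed against uncrushed nerves.

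The 3 ubiquitin ligases among the hosts fell or kept near their controls. Wwp2, which hosts Mir140, measured 39.7, 48.9, 47.2 and 37.2 CPM in contralateral, 40.3, 35.1 and 29.6 CPM in uncrushed and 29.1, 31.0, 28.8 and 24.0 CPM in crushed nerves (-0.76 ± 0.10, adjusted p = 1.35e-05 and -0.44 ± 0.11, adjusted p = 0.00469). Crushed nerves lay below contralateral nerves and overlapped with uncrushed nerves. Wwp2 measured 78.8, 78.1 and 79.0 CPM in Dgcr8 controls and 70.9, 71.2 and 66.9 CPM in Dgcr8 iKO nerves, which did not overlap but missed the threshold (-0.18 ± 0.11, adjusted p = 0.202). In the Dicer line Wwp2 ran from 62.2 to 79.2 CPM in controls and from 59.1 to 74.9 CPM in iKO nerves, which overlapped. Rnf130, which hosts Mir340, fell on Dgcr8 loss from 207, 167 and 178 CPM to 123, 123 and 118 CPM (-0.60 ± 0.13, adjusted p = 0.00268). On Dicer loss it measured 159, 163 and 180.0 CPM in controls and 141, 134 and 139 CPM in iKO nerves, lower without overlap and short of the threshold (-0.27 ± 0.09, adjusted p = 0.0797). After crush Rnf130 fell from 91.5, 90.1, 89.7 and 84.5 CPM in contralateral and 73.1, 76.6 and 75.7 CPM in uncrushed to 50.1, 69.2, 64.9 and 64.6 CPM in crushed nerves (-0.65 ± 0.09, adjusted p = 2.35e-05 and -0.39 ± 0.11, adjusted p = 0.00775). Huwe1, which hosts Mir98 and Mirlet7f-2, fell against contralateral (-0.21 ± 0.08, adjusted p = 0.0318) and not against uncrushed nerves (0.03 ± 0.10, adjusted p = 0.822). The first value missed the threshold without contralateral 2, contralateral 3 or crushed 4 (up to 0.127). On Dgcr8 loss Huwe1 stood at 564, 666 and 534 CPM in controls and 439.5, 479 and 449.8 CPM in iKO nerves, without overlap and just short of the threshold (-0.37 ± 0.15, adjusted p = 0.0645).

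Tmem245, a transmembrane protein of little-known function that hosts Mir32, was the only host downregulated on Dgcr8 loss. It measured 477, 656 and 422 CPM in Dgcr8 controls and 220.1, 242 and 244 CPM in Dgcr8 iKO nerves, 2.21-fold lower and without overlap (-1.14 ± 0.18, adjusted p = 0.000411). Control 2 was the highest library, and without it the change was -0.94, under the 2-fold limit with an adjusted p of 0.00104 (up to 0.00398 over the alternatives). In the Dicer line Tmem245 measured 268, 307 and 502 CPM in controls and 292, 219.7 and 229 CPM in iKO nerves, which overlapped (-0.54 ± 0.24, adjusted p = 0.153). After crush it went from 619, 642, 662 and 639 CPM in contralateral and 572, 577 and 712 CPM in uncrushed to 417, 393, 281 and 333 CPM in crushed nerves (-0.98 ± 0.11, adjusted p = 1.96e-06 and -0.92 ± 0.14, adjusted p = 0.000141), close to 2-fold.

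**Figure D3:**
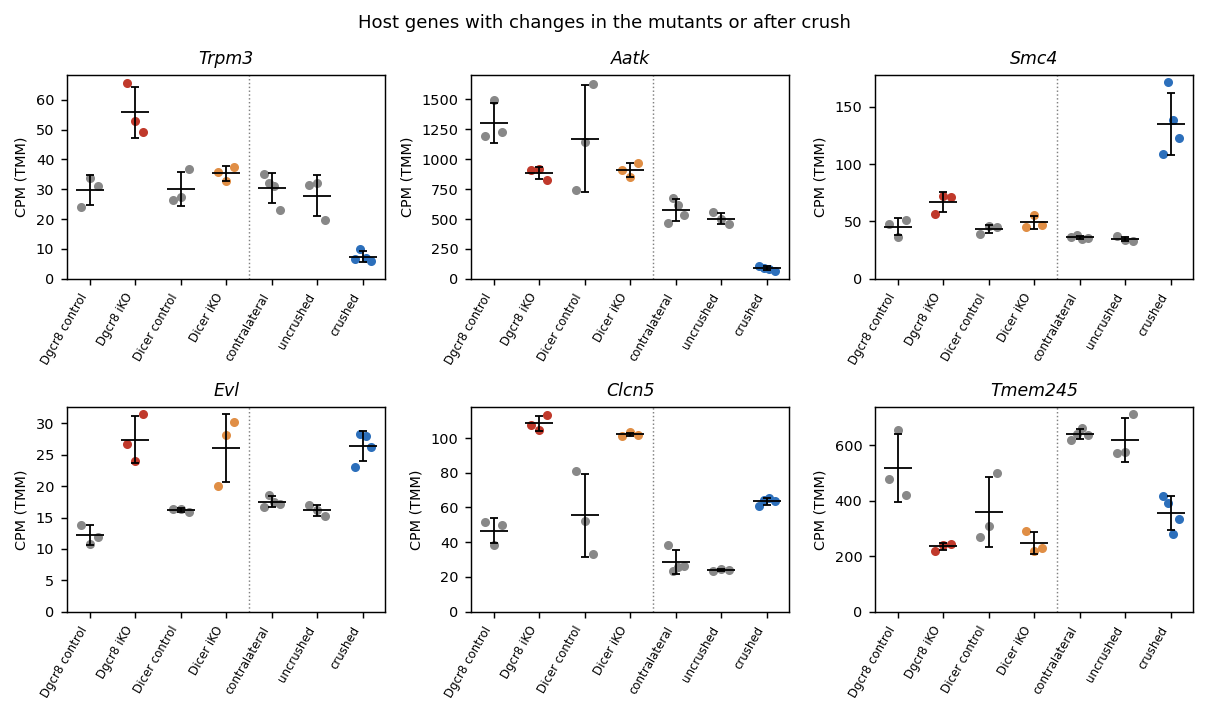
CPM (vertical axis, from 0) of 6 hosts in every library, by group, with the mean ± SD in black; a dotted line separates the 2 experiments. Trpm3 lies above its controls in Dgcr8 iKO (red) and below them in crushed nerves (blue), Aatk and Tmem245 lie below and Smc4, Evl and Clcn5 above their controls in both.

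Egfl7, a secreted endothelial protein that hosts Mir126a, fell in Dgcr8 iKO nerves. It measured 105, 103 and 83.8 CPM in controls and 54.5, 48.3 and 59.9 CPM in iKO nerves, without overlap (-0.85 ± 0.14, adjusted p = 0.000507). In the Dicer line it measured 62.7, 60.8 and 77.5 CPM in controls and 55.7, 51.8 and 44.3 CPM in iKO nerves, also lower without overlap, and did not pass the test (-0.40 ± 0.14, adjusted p = 0.0759). The difference between the 2 effects did not pass either (-0.44 ± 0.20, adjusted p = 0.346). After crush the groups overlapped, at 19.9, 24.2, 21.1 and 16.2 CPM in contralateral, 24.1, 17.8 and 17.7 CPM in uncrushed and 21.2, 13.8, 15.6 and 11.7 CPM in crushed nerves (-0.53 ± 0.16, adjusted p = 0.0117 and -0.48 ± 0.18, adjusted p = 0.0360). The first of these missed the threshold without contralateral 2 (0.0513) and the second without crushed 2, 3 or 4 or uncrushed 1 (up to 0.254). Of 8 endothelial markers, 4 fell and 0 rose on Dgcr8 loss (summed level 309 to 353 CPM in controls, 202 to 278 CPM in mutants), and 1 fell on Dicer loss (278 to 304 CPM and 196 to 218 CPM). After crush 4 rose and 2 fell against contralateral nerves, and the summed level was higher (159 to 189 CPM, against 223 to 272 CPM in crushed nerves), so Egfl7 and the sum of these markers moved in opposite directions there. None of the 8 was at 0, and their part in the fall of Egfl7 on Dgcr8 loss was not tested.

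The remaining hosts serve RNA and protein production. Copz1, a coatomer subunit that hosts Mir148b, measured 20.6, 21.2, 19.9 and 21.9 CPM in contralateral, 20.8, 18.9 and 16.5 CPM in uncrushed and 38.6, 39.2, 41.7 and 34.4 CPM in crushed nerves (0.74 ± 0.08, adjusted p = 1.23e-06 and 0.91 ± 0.10, adjusted p = 1.02e-05). In the Dgcr8 line Copz1 measured 40.5, 35.1 and 38.3 CPM in controls and 51.8, 49.1 and 42.7 CPM in iKO nerves, without overlap and just short of the threshold (0.33 ± 0.13, adjusted p = 0.0536; 0.0314 without iKO 3). Rcl1, a factor of ribosomal RNA processing that hosts Mir101b, rose after crush, from 4.50, 4.75, 5.19 and 4.04 CPM in contralateral and 4.96, 3.88 and 3.05 CPM in uncrushed to 7.70, 8.01, 7.19 and 5.52 CPM in crushed nerves (0.48 ± 0.15, adjusted p = 0.0114 and 0.69 ± 0.20, adjusted p = 0.00965), the first missing the threshold without crushed 2 (0.0529). On Dgcr8 loss Rcl1 stood lower, at 13.9, 13.8 and 13.6 CPM in controls and 9.78 to 11.4 CPM in iKO nerves, without overlap and without passing the test (-0.41 ± 0.16, adjusted p = 0.0628). Iars2, the mitochondrial isoleucyl-tRNA synthetase, rose after crush from 32.5, 34.8, 37.9 and 33.7 CPM and 29.8, 31.9 and 26.9 CPM to 50.9, 54.6, 50.03 and 43.8 CPM (0.38 ± 0.08, adjusted p = 0.000647 and 0.63 ± 0.10, adjusted p = 0.000107), and it measured 76.6, 68.2 and 82.5 CPM in Dgcr8 controls and 74.5, 77.9 and 75.0 CPM in Dgcr8 iKO nerves (0.00 ± 0.12, adjusted p = 0.979). Dalrd3, a protein of tRNA modification, fell against contralateral (-0.37 ± 0.15, adjusted p = 0.0448) and not against uncrushed nerves (0.01 ± 0.18, adjusted p = 0.958), and the first call was lost without contralateral 2 or 3 or crushed 2, 3 or 4 (up to 0.145). In the Dicer line Copz1 ran from 29.7 to 40.6 CPM in controls and from 44.5 to 45.7 CPM in iKO nerves, higher without overlap. Rcl1 ran from 9.47 to 9.91 CPM and from 9.61 to 11.1 CPM there, which overlapped. Iars2 overlapped as well, at 70.05 to 74.7 CPM and 66.8 to 70.2 CPM. None of Copz1, Rcl1 and Iars2 passed the test on Dicer loss.

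The difference between the effects of Dgcr8 loss and of Dicer loss, the test of whether loss of cropping changed the hosts in a way that loss of dicing did not, was significant for 0 of 32 hosts tested, and for 0.0148% of all genes. At an unadjusted p under 0.05 there were 6 hosts. DESeq2 called 1 host, Tln2, at a difference of 0.79 (adjusted p = 0.0179, while edgeR gave 0.77 ± 0.19, adjusted p = 0.154). Over all 13552 genes tested, DESeq2 called 170 higher and 65 lower, more than edgeR did. Next in size among well-measured hosts were Trpm3 (0.67 ± 0.24, adjusted p = 0.256), Tmem245 (-0.61 ± 0.32, adjusted p = 0.429), Dalrd3 (-0.51 ± 0.19, adjusted p = 0.284), Rcl1 (-0.49 ± 0.20, adjusted p = 0.318) and Evl (0.47 ± 0.23, adjusted p = 0.401). With 3 nerves a group, the standard errors of the differences ran from 0.13 to 0.33 apart from the rare Ank1, Gabre and Ppargc1b. Evl, Ctdsp1 and Ctdspl passed in both mutants and moved the same way in both.

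Dgcr8 loss and crush share no libraries, and 13 hosts passed in both Dgcr8 iKO and crushed against contralateral nerves. Of these, 6 rose in both, 6 fell in both and 1, Trpm3, moved in opposite directions; the counts were the same against uncrushed nerves. Both thresholds were passed by 37.8% of all genes tested in Dgcr8 iKO and against contralateral nerves, where 31 hosts were tested, and 93.4% of those genes moved the same way in both. Against uncrushed nerves these shares of all genes were 35.8% and 92.7%. The difference of the 2 effects was tested across the kits, each effect being taken within its own experiment. It passed for 15 of 33 hosts, with 10 higher and 5 lower on Dgcr8 loss than after crush (16.4% and 21.0% of all genes). Trpm3 differed most (3.03 ± 0.23, adjusted p = 2.60e-08), followed by Aatk (2.23 ± 0.20, adjusted p = 2.49e-07), Pank3 (1.34 ± 0.17, adjusted p = 9.30e-06), Pank1 (1.31 ± 0.27, adjusted p = 0.000976) and Smc4 (-1.26 ± 0.19, adjusted p = 5.70e-05). For Aatk, Pank1, Pank3, Ctdsp1, Ctdsp2, Ctdspl, Wwp2 and Ppargc1b a positive difference stands for a larger fall after crush, and for Evl (0.66 ± 0.17, adjusted p = 0.00476) a larger rise on Dgcr8 loss. Smc4, Copz1 and Iars2 rose more after crush, and Rcl1 (-0.93 ± 0.20, adjusted p = 0.00135) and Dnm3 (-0.55 ± 0.19, adjusted p = 0.0318) had negative changes on Dgcr8 loss and positive ones after crush. The calls of Trpm3, Aatk, Pank1, Pank3, Smc4, Evl, Rcl1 and Ctdsp1 held in all 22 alternatives. That of Dnm3 held in 10 of 22, that of Ppargc1b in 17 (lost without Dgcr8 control 1, Dgcr8 iKO 2, contralateral 3 or crushed 2, and with no filter on counts) and that of Ctdspl in 18 (lost without Dgcr8 control 1 or Dgcr8 iKO 2, with no filter, and with uncrushed nerves as the control). With uncrushed nerves as the control, Wwp2, Ctdsp2 and Ctdspl missed the threshold (0.145, 0.101 and 0.0506). Without contralateral 4 or without crushed 3, Copz1, Iars2 and Dnm3 missed it, which left 2 lower hosts, while Arrb1 passed. Clcn5, Tln2, Lpp, Rnf130 and Tmem245 had differences between -0.20 and 0.14, with standard errors of 0.14 to 0.20.

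**Figure D4:**
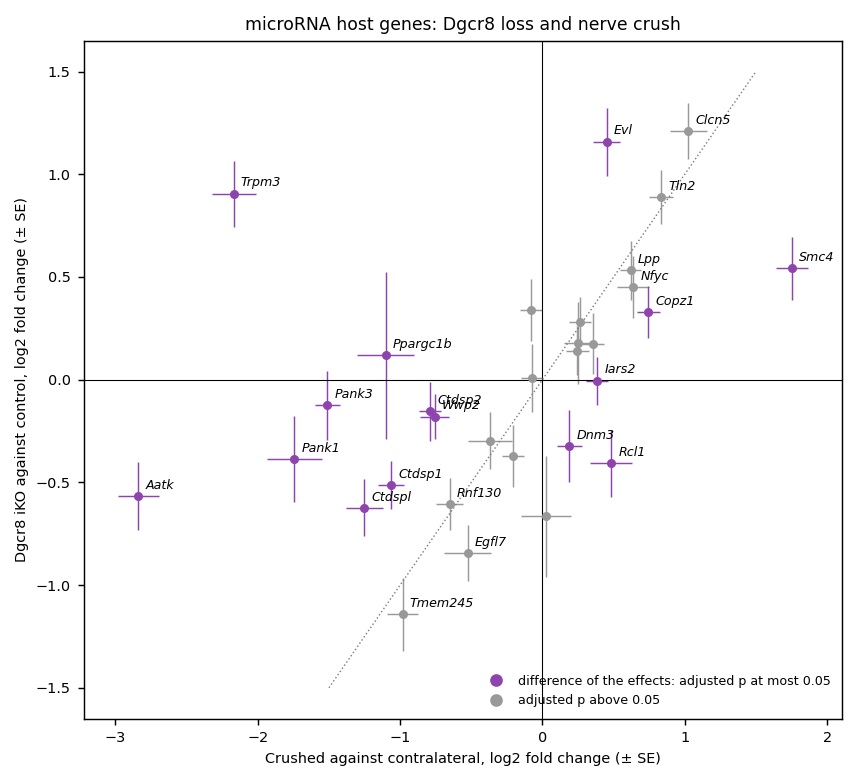
Log2 fold change ± SE of each host in crushed against contralateral nerves (horizontal axis) and in Dgcr8 iKO against control nerves (vertical axis); purple points passed the test of the difference of the 2 effects, and the dotted line marks equal effects. Trpm3 lies in the upper left, at -2.17 and 0.91; Clcn5, Tln2, Lpp, Nfyc, Rnf130 and Tmem245 lie near the line.

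An uncropped hairpin would be counted where an annotated transcript keeps it in an exon, and listed transcripts of 3 hosts do so. The Egfl7 transcript with a retained intron over Mir126a, Egfl7-206, had estimated counts of 51.1, 51.0 and 62.1 in Dgcr8 controls and 23.0, 26.1 and 48.5 in Dgcr8 iKO nerves (-0.81 ± 0.40, adjusted p = 0.250). It stood lower in the mutants, as the whole gene did, and the change did not pass the test. Egfl7 is an endothelial gene, and cells other than SCs kept both alleles. This transcript therefore cannot show whether cropping was lost in SCs. In Dicer iKO nerves its change was -0.69 ± 0.43, adjusted p = 0.492 and in crushed against contralateral nerves 0.65 ± 0.29, adjusted p = 0.114. Both Ctdsp2 transcripts hold Mir546 in an exon, and neither passed on Dgcr8 loss (0.03 ± 0.14, adjusted p = 0.926 for the longer in genome span and -0.65 ± 0.28, adjusted p = 0.195 for the other). The 3 Huwe1 transcripts with Mir3113 in an exon had estimated counts of 51.1 to 279.9 in the iKO libraries, and none passed on Dgcr8 loss. The change was 0.34 ± 0.37, adjusted p = 0.630 for Huwe1-206, -0.49 ± 0.19, adjusted p = 0.155 for Huwe1-207 and -0.50 ± 0.55, adjusted p = 0.633 for Huwe1-218, so 1 stood higher and 2 lower in the mutants. Most hairpins sit in introns, which these counts do not cover, so whether primary transcripts built up was not measured.

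For most hosts the counts came from transcripts that run over the hairpin, with some exceptions beside Clcn5. In Dnm3 the share over Mir199a-2 was 75.5% ± 1.70 in Dgcr8 controls and 64.9% ± 3.34 in Dgcr8 iKO nerves (SD, n = 3 each), and 73.7% ± 4.10 and 64.5% ± 2.38 in the Dicer line; neither pair of groups overlapped. In Ptk2 the share over Mir151 was 78.4% ± 5.46 in Dgcr8 controls and 90.4% ± 1.12 in Dgcr8 iKO nerves, and it went the other way after crush, from 85.8% ± 2.50 (SD, n = 4) in contralateral to 73.6% ± 4.74 in crushed nerves. With 1 of the 2 listed Ptk2 transcripts not in the annotation, these are lower limits. For Trpm1, 14 of 16 and 20 of 22 listed transcripts were not in the annotation, and no share is given. These shares rest on estimated splits of reads between transcripts and were not tested.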

How the data were processed

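Total RNA of 23 mouse SNs in 7 groups was sequenced. The authors trimmed reads with Trimmomatic, aligned them to GRCm38 with STAR and quantified Ensembl transcripts with RSEM, and per the file headers each library holds 1 estimated count (expected count) and 1 FPKM value per transcript. Whether the counting used strand is not given in the sources used here. Here the expected counts, as deposited, were summed per gene and rounded. The FPKM values, as deposited by the authors, were summed per gene and used only to order genes within a group. CPM came from all genes listed, without a filter.

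The 34 hosts, the marker and biogenesis lists and the tests were chosen with earlier results of these data known. All hosts are accounted for. Values in every sample are given for hosts changed at least 2-fold past the threshold in a mutant or in both crush comparisons. They are also given for hosts past a test of a difference of effects and for the paralog families. Exceptions given by range only are Copz1, Rcl1, Iars2, Wwp2 and Ppargc1b in the Dicer line. Rcl1 in Dgcr8 iKO nerves and Gabre and Trpm1 in the iKO libraries are also given by range. At most 10 other hosts, called on Dgcr8 loss and in both crush comparisons, are named by the size of the Dgcr8 change. Of the marker lists 2 genes, and of the 10 other hosts 1, are not reported here, and list counts and sums leave these markers out. Per-sample values of Huwe1, Rnf130, Egfl7, Lpp, Nfyc, Ptk2 and Ank1 were added after they were seen. Groups were compared with edgeR 4.0.16 (R 4.3.3; TMM, filterByExpr with a minimum count of 10, quasi-likelihood F test, Benjamini-Hochberg over all genes tested; SE from the log2 fold change and F), with each comparison fitted on its own groups and differences of effects fitted over the 4 groups concerned. Transcripts with a hairpin in an exon were tested in the same way over all transcripts. Alternatives were RLE scaling, DESeq2 1.42.0, no filter, a filter of 10 counts in each library, a table limited to protein-coding genes, 1 fit over all groups, no fold limit, a replicate block, uncrushed nerves as the control of crush and leaving out each library. The fits were tested on simulated counts. The 27 pairs of replicates of a group differed beyond counting noise (chi-square per degree of freedom 3.859 to 40.257), so each counted as a sample, and the study describes them as separate mice. Hosts and hairpins came from GENCODE (GRCm38) and mature sequences from RefSeq, where 47 of 53 hairpin genes matched by symbol.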

Additional observations from a re-analysis of the deposited data

Results flagged for a closer look

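Of 68 tests of the crushed and contralateral groups of 4 nerves over the hosts (1 in 20 would be expected to stand out by chance), 1 nerve stood apart from the rest of its group by Dixon's test. Tln2 measured 118.9 CPM in crushed 4, against 151 to 155 CPM in the other 3 crushed nerves. That nerve still lay above every control nerve. Without it the log2 fold change of Tln2 was 0.90 (adjusted p = 6.25e-07, edgeR) against contralateral and 1.19 (adjusted p = 3.38e-06) against uncrushed nerves, where all libraries gave 0.83 and 1.15.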

How the results depend on the processing

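Of the values of single hosts and host transcripts, 1561 kept their direction and side of the limits under alternatives of processing, 15 passed newly and 13 no longer passed, and when single libraries were left out 1905 held, 13 passed newly and 26 no longer passed; no called value reversed. Without the 2-fold limit the hosts higher and lower were 7 and 6 (Dgcr8 iKO), 1 and 2 (Dicer iKO), 13 and 15 (against contralateral) and 14 and 13 (against uncrushed nerves). With 10 counts required in each library, or with the table limited to protein-coding genes, 1 host was upregulated against contralateral nerves, since Clcn5 fell just short of 2-fold (0.97 in each). With no filter 5 were upregulated against uncrushed nerves, with Copz1 (1.13) and Lpp (1.01) added. DESeq2 called 1 host, Tln2, for the difference between Dgcr8 and Dicer loss, where it called 170 genes higher and 65 lower of all 13552 tested. Leaving out 1 library at a time gave 2 to 3 hosts up and 0 to 1 down in Dgcr8 iKO, 0 to 1 up and 0 down in Dicer iKO, 1 to 2 up and 7 to 9 down against contralateral, 3 to 4 up and 7 to 8 down against uncrushed nerves, and 8 to 11 higher and 2 to 6 lower for the difference between Dgcr8 loss and crush. Clcn5 was the host up in Dicer iKO (without Dicer control 1), Trpm3 the third host up in Dgcr8 iKO (1.01 without control 2), and Tmem245 the host lost there.

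Same-numbered samples did not deviate together (mean correlation -0.06 to 0.053 over the comparisons, and in none was every pair above 0.1). Crushed and contralateral nerves came from the same mice, but whether equal numbers mark 1 mouse is not given in the sources used here, so the comparison treats them as separate samples; the other groups share only a number. With a replicate block the counts of hosts past 2-fold did not change, and by the adjusted p alone there were 6 up and 6 down in Dgcr8 iKO and 0 and 0 in Dicer iKO, where Evl, Ctdsp1 and Ctdspl had adjusted p-values of 0.0777, 0.111 and 0.0713. Against contralateral nerves the block gave 13 up and 14 down, with Dalrd3 lost (0.07995).

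Scaling without a filter moved the hosts by 0.16 (contralateral) and 0.23 (uncrushed) on the log2 scale, and the fit of all groups by -0.10 against uncrushed nerves. Small changes after crush therefore depend on the scale: without a filter Ctdsp2, Rnf130, Wwp2 and Egfl7 missed the threshold against uncrushed nerves (0.209, 0.398, 0.247 and 0.211) and Huwe1 against contralateral nerves (0.815). Trpm1, Gabre and Myh7b lie at the detection limit in the iKO libraries.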

Other observations

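The GRCm38 annotation holds 779 other genes with a miRNA gene on their own strand, which allow the same comparison over a longer list. On Dgcr8 loss 649 of them were tested and 177 rose and 134 fell, and on Dicer loss 87 rose and 61 fell of 642. Against contralateral nerves 264 rose and 212 fell of 676, and against uncrushed nerves 305 rose and 183 fell of 681. Over all genes tested, 23.9% rose and 20.6% fell on Dgcr8 loss and 12.3% and 8.88% on Dicer loss. The shares were 33.5% and 32.9% against contralateral and 33.8% and 33.4% against uncrushed nerves. Without a fold limit, 93.4% of all genes past the threshold on Dgcr8 loss and against contralateral nerves moved the same way in both. Against uncrushed nerves it was 92.7%. Among the 779 other hosts, 79 changed at least 2-fold past the threshold in Dgcr8 iKO nerves and in both crush comparisons. Of the 79 hosts, 0 differed in direction between the comparisons. No share of all genes is given for this rule, either for the calls or for the direction. Neither count is read as a trait of these hosts. By size of the change on Dgcr8 loss, those with large changes included Adam8, a metalloprotease of leukocytes that holds Mir7062 (4.82 in Dgcr8 iKO and 4.04 against contralateral nerves), Hmga2, a chromatin protein of growing cells that holds Mir763 (4.73 and 5.66), and Slamf7, a leukocyte receptor (4.37 and 1.61). The mitotic genes Tpx2 (4.23 and 5.18), Ccnf (4.01 and 3.97) and Troap (3.67 and 4.09) followed. Bin2, a membrane-bending protein of leukocytes (3.58 and 3.51), and Clspn, a DNA replication checkpoint protein (3.23 and 3.23), also rose. Lrp1b, a lipoprotein receptor that holds Mir6336, was the only one of the 9 named here that fell (-3.35 and -1.10). The 9 come from the 10 with the largest change on Dgcr8 loss. The markers of macrophages and proliferation rose in the same nerves, and their part in these values was not tested.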
